A study of Mus musculus with 10 samples.

Results

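Transcripts of 10 transcription factors of the skull sutures were examined in the anterior fontanelle (AF), the membrane-covered gap between the growing skull bones, of mouse embryos late in gestation. The 10 factors were *Twist1*, *Twist2*, *Tcf12*, *Zic1*, *Foxc1*, *Foxc2*, *Prrx1*, *Six2*, *En1* and *Erf*. They were chosen by gene symbol, for their part in craniosynostosis or as factors of suture mesenchyme, and not for their values. Earlier results of these data were known when they were chosen. All 10 were found among the 23080 genes of the deposited table, and all 10 passed the filter on low counts that kept 16267 genes for testing.

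RNA of the dissected fontanelle, with the adjoining bone left in, was sequenced in bulk, and neural tissue and skin were not meant to be part of the sample. The labels give 5 libraries the genotype WT and 5 the genotype *Wnt1-Cre; Fgfr2fl/fl*, and name no other allele or treatment. *Wnt1-Cre* drives recombination in neural crest cells, which form the frontal bones and the AF tissue, so cells of other origin in the same region keep the receptor gene *Fgfr2*. The study calls the libraries littermate pairs without saying which control belongs to which mutant, whether a library is of 1 embryo, or whether controls carried floxed alleles without Cre.

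Sutures are fibrous joints in which mesenchymal progenitors divide and supply osteoblasts to the bone fronts, and craniosynostosis is their premature fusion. TWIST1 is a basic helix-loop-helix (bHLH) factor that binds DNA as a dimer, often with an E protein such as TCF12, and loss of a copy of either gene causes coronal synostosis in humans. ERF is an ETS-family repressor that leaves the nucleus when phosphorylated by ERK, the kinase downstream of FGF receptors, and its haploinsufficiency also causes craniosynostosis. The other factors mark or pattern skull mesenchyme: the forkhead factors FOXC1 and FOXC2, the zinc finger factor ZIC1, and the homeodomain factors PRRX1, SIX2 and EN1.

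The paralogues *Foxc1* and *Foxc2* carry an almost identical coding stretch, which bears on how their reads could be counted. It is shown here 5′ to 3′ on the plus strand of GRCm38, with the bases that differ in capitals, at chr13:31807628-31807740 for *Foxc1* and chr8:121117014-121117126 for *Foxc2*.
Foxc1: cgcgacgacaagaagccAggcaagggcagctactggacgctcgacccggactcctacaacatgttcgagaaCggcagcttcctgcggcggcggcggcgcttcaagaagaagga
Foxc2: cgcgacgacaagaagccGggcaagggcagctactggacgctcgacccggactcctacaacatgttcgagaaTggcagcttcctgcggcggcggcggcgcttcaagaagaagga
The 113 bases differ at 2 positions, and the longest run without a difference is 53 bases, longer than the 50-base reads. The longest such stretch of *Twist1* (chr12:33958362-33958402) and *Twist2* (chr1:91801873-91801913) is shown in the same way, in the coding sequence of both genes.
Twist1: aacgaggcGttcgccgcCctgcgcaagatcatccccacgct
Twist2: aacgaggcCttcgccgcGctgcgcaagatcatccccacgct
These 41 bases also differ at 2 positions, but the longest run without a difference is 23 bases, so no read of 50 bases could match both transcripts without a mismatch.

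The library totals were 21814198 to 28515434 counts in the control-labelled group and 20774667 to 25748619 in the mutant-labelled group, of which 1 ribosomal RNA gene, *CT010467.1*, took 18.6% to 33.5%. Levels are given as CPM, counts scaled to a common library size by TMM. *Fgfr2*, the targeted gene, was higher under the mutant label. It stood at 199.5 ± 21.7 CPM in the control-labelled and at 318 ± 32.8 CPM in the mutant-labelled libraries (SD, n = 5). The difference was 0.67 on the log2 scale (SE 0.090), with an adjusted p of 0.0487 in edgeR's quasi-likelihood test and an exact permutation p of 0.00794. Without 1 library at a time the adjusted p ran from 0.00900 to 0.260 and missed 0.05 in 8 of 10 fits, all but those without control-labelled or mutant-labelled replicate 2. A count over the whole gene does not separate the floxed exons from the rest, so it cannot show whether they were deleted. The groups are named below by their labels. Mutant-labelled replicate 2 stood apart: the 8 neuron markers summed to 521 CPM in it and to 67.1 to 224 CPM in the other 9 libraries. The 15 osteoblast markers summed to 82713 CPM in it and to 98726 to 119764 CPM in the others, so values without it are given beside the results it moves.

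None of the 10 factors passed an adjusted p of 0.05 (edgeR's quasi-likelihood test, Benjamini-Hochberg over all 16267 genes), a threshold that 0.0184% of all genes passed. None had an unadjusted p under 0.05, which 7.49% of all genes had, and none had groups that did not overlap, which held for 1.48% of all genes. DESeq2's Wald test also gave 0 factors at either threshold, which 97 and 1459 of 23018 genes passed. The fitted change was higher in the mutant-labelled libraries for 5 factors and lower for 5. The median change over the 10 factors was 0.017 on the log2 scale, against 0.00073 over all genes tested. When libraries were scaled by their totals alone, these medians were −0.025 and −0.038. The median size of the change, regardless of sign, was 0.096 for the factors and 0.091 for all genes. In bulk tissue, fewer cells that express a gene and less RNA per cell cannot be told apart.

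**Figure D1:**
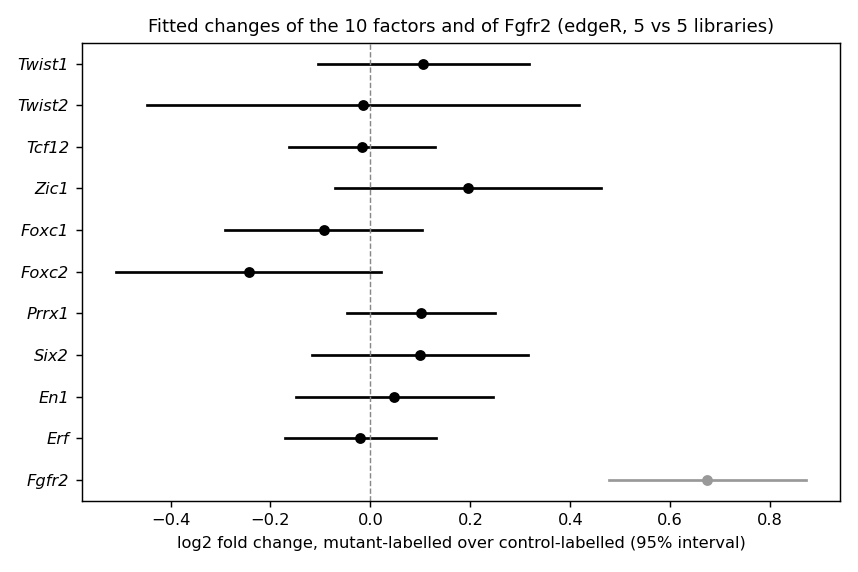
Fitted log2 fold change of each factor, mutant-labelled over control-labelled (horizontal axis), with its 95% interval from edgeR's quasi-likelihood fit over 5 and 5 libraries, and *Fgfr2* in gray. All 10 intervals of the factors include 0, from the narrowest for *Tcf12* (−0.16 to 0.13) to the widest for *Twist2* (−0.45 to 0.42), and that of *Fgfr2* (0.48 to 0.87) does not.

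Among the bHLH factors, *Twist1* (chr12:33957671-33959829, plus strand), which keeps mesenchyme undifferentiated and acts in epithelial-mesenchymal transition, was spread more widely among mutant-labelled than among control-labelled libraries. Its control-labelled levels were 75.2, 80.8, 75.0, 82.9 and 73.2 CPM for replicates 1 to 5, and its mutant-labelled levels were 96.1, 64.1, 83.8, 79.6 and 93.2 CPM. Of the mutant-labelled libraries, 3 lay above all controls, and replicate 2 lay below all controls. The means were 77.4 ± 4.19 and 83.4 ± 12.7 CPM (SD, n = 5), a log2 difference of 0.11 (95% interval −0.11 to 0.32; exact permutation p = 0.437). Without mutant-labelled replicate 2 the log2 difference was 0.19 (SE 0.067), with an unadjusted p of 0.0155 and an adjusted p of 0.578 in edgeR's quasi-likelihood test. Without mutant-labelled replicate 1 or 5, the highest libraries, it was 0.059 or 0.063.

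*Twist2* (chr1:91801461-91848028, plus strand), the paralogue known for its part in dermis, was the lowest of the factors and rested on 81 to 189 counts per library. The control-labelled levels were 4.74, 6.48, 4.25, 5.19 and 5.03 CPM for replicates 1 to 5, and the mutant-labelled levels were 7.66, 3.97, 5.18, 5.11 and 3.58 CPM. The groups overlapped throughout, with the highest and the lowest value both in mutant-labelled libraries, and the log2 difference of −0.014 had an interval of −0.45 to 0.42 (exact permutation p = 0.841). It was −0.20 without mutant-labelled replicate 1, 0.068 without mutant-labelled replicate 2 and 0.092 without control-labelled replicate 2. The highest values were in mutant-labelled replicate 1 and control-labelled replicate 2. There the 7 skeletal muscle markers tested summed to 735 and 750 CPM, and to at most 145 CPM elsewhere. The 5 hypodermis and dermis markers summed to 198 CPM in mutant-labelled replicate 1 and to 14.8 to 54.3 CPM in the other 9 libraries. The part of these tissues in the *Twist2* values was not tested. *Twist2* also shares 1477 exon bases with the antisense gene *Gm29100*, which had a mean of 9.4 counts, and counting was not stated to use strand.

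*Tcf12* (chr9:71842688-72111871, minus strand), the E protein partner of TWIST1, had the narrowest interval of the 10. It stood at 104, 107, 95.2, 99.5 and 99.6 CPM in control-labelled replicates 1 to 5 and at 102, 87.7, 107, 93.3 and 110.0 CPM in the mutant-labelled ones. The mutant-labelled values reached past the controls at both ends, and the means were 101 ± 4.63 and 99.9 ± 9.27 CPM (SD, n = 5). The log2 difference of −0.017 had an interval of −0.16 to 0.13, or 10.7% lower to 9.33% higher (exact permutation p = 0.770). Without mutant-labelled replicate 2 the difference was 0.032.

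Of 11 other bHLH partners and inhibitors listed beside these 3 genes, 8 were tested, 0 passed the adjusted threshold, and 0 had an unadjusted p under 0.05 in edgeR's test. Their median log2 change was −0.035. The smallest p of the list was that of *Tcf4*, another E protein gene, at 151 ± 5.08 and 172 ± 28.9 CPM (SD, n = 5), with 223 CPM in mutant-labelled replicate 2 alone (edgeR's unadjusted p = 0.0714; exact permutation p = 0.0317). Next in the bHLH list came *Tcf15* (log2 difference −0.34, at means of 2.03 and 1.61 CPM) and *Tcf3* (0.045). Of 9 genes of epithelial-mesenchymal transition 0 passed either threshold in edgeR's test, with a median of 0.069. That list led with the cadherin *Cdh2* (log2 difference −0.11, edgeR's unadjusted p = 0.0564, exact permutation p = 0.0397), followed by the repressors *Zeb1* (0.12) and *Zeb2* (0.13).

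*Zic1* (chr9:91358058-91365810, minus strand), which carries gain-of-function variants in coronal synostosis, had the highest fitted change of the 10. Its levels were 56.7, 38.1, 44.2, 44.3 and 54.8 CPM in control-labelled replicates 1 to 5 and 54.4, 46.7, 66.5, 56.3 and 48.7 CPM in the mutant-labelled ones. Only mutant-labelled replicate 3 lay above all controls. The means of 47.6 ± 7.88 and 54.5 ± 7.75 CPM (SD, n = 5) differed by 0.20 on the log2 scale (interval −0.071 to 0.46; exact permutation p = 0.183), less than the spread between libraries. Without control-labelled replicate 1 the difference was 0.27 with an unadjusted p of 0.0449 (edgeR; adjusted p = 0.667). It was 0.12 without mutant-labelled replicate 3 and 0.13 without control-labelled replicate 2. *Zic1* shares 60 exon bases with *Zic4* on the opposite strand, which had a mean of 174.9 counts.

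*En1* (chr1:120602418-120607992, plus strand), an engrailed homeodomain gene of skull mesenchyme and dermis, was steady among the controls and varied among the mutants. The control-labelled libraries stood at 20.3, 22.3, 22.9, 23.0 and 22.7 CPM, and the mutant-labelled ones at 24.5, 18.3, 21.4, 26.5 and 24.3 CPM, for replicates 1 to 5. Of the mutant-labelled libraries 3 lay above all controls, and replicate 2 lay below all. The means were 22.3 ± 1.09 and 23.0 ± 3.19 CPM (SD, n = 5), a log2 difference of 0.048 (interval −0.15 to 0.25; exact permutation p = 0.722). The difference was 0.13 without mutant-labelled replicate 2 (edgeR's unadjusted p = 0.0971, adjusted p = 0.797) and 4.6e-05 without mutant-labelled replicate 4, the highest library.

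*Foxc1* (chr13:31806633-31812476, plus strand), a forkhead factor needed for growth of the skull vault and for the meninges beneath it, had 3 mutant-labelled libraries below all controls. It stood at 72.9, 68.1, 65.9, 78.9 and 84.5 CPM in control-labelled replicates 1 to 5 and at 74.9, 63.1, 81.0, 63.8 and 64.4 CPM in the mutant-labelled ones. The means of 74.1 ± 7.68 and 69.4 ± 8.10 CPM (SD, n = 5) differed by −0.093 on the log2 scale (interval −0.29 to 0.10; exact permutation p = 0.349). Leaving out 1 library at a time gave −0.15 (without mutant-labelled replicate 3) to −0.035 (without control-labelled replicate 5). The value was −0.055 when mutant-labelled replicate 2 was left out.

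*Foxc2* (chr8:121116171-121118895, plus strand), its paralogue, had the smallest p of the 10. The control-labelled libraries stood at 25.2, 18.9, 19.3, 22.8 and 24.1 CPM, and the mutant-labelled ones at 18.3, 18.7, 24.0, 15.7 and 16.5 CPM, for replicates 1 to 5. Of the mutant-labelled libraries, 4 lay below all controls, and replicate 3 lay among the higher controls. The means were 22.1 ± 2.85 and 18.6 ± 3.23 CPM (SD, n = 5), a log2 difference of −0.24 (interval −0.51 to 0.022). This did not pass (edgeR's unadjusted p = 0.0688, adjusted p = 0.669; exact permutation p = 0.0952). Without mutant-labelled replicate 3 the difference was −0.34 with an unadjusted p of 0.00659 (edgeR; adjusted p = 0.505), and without control-labelled replicate 2 it was −0.29 with an unadjusted p of 0.0414 (adjusted p = 0.597). It was −0.18 both without mutant-labelled replicate 4 and without control-labelled replicate 1, with unadjusted p-values of 0.173 and 0.177 (edgeR).

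The counts of the pair were not independent. In 6 of 10 libraries both genes had counts that were not whole, while their sum was whole within 0.01 in 10 of 10 (the stretch printed above lies in both). Tools that estimate counts can divide a read that matches both genes, and whether this was done here was not tested. In control-labelled replicate 1, for example, *Foxc1* had 1967.72 counts and *Foxc2* 680.277. The sum of both, which a division of reads between them would not change, had medians of 98.2 CPM in the control-labelled and 81.8 CPM in the mutant-labelled libraries, with overlapping ranges of 85.1 to 109 and 79.4 to 105 CPM (log2 difference −0.13; exact permutation p = 0.230). The ratio of *Foxc1* to *Foxc2* per kilobase of exon ran from 1.35 to 1.68 among controls and from 1.57 to 1.91 among mutants (exact permutation p = 0.119).

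Among the homeodomain factors of mesenchyme, *Prrx1* (chr1:163245119-163313710, minus strand), which marks progenitors of the sutures, lay above all controls in 4 of 5 mutant-labelled libraries. The control-labelled levels were 210.3, 218, 199.0, 196 and 217 CPM for replicates 1 to 5, and the mutant-labelled levels were 243, 193, 223, 219 and 239 CPM. Replicate 2 was the exception and the lowest of all 10 libraries. The means were 208 ± 10.2 and 223 ± 19.6 CPM (SD, n = 5), and the log2 difference of 0.10 had an interval of −0.047 to 0.25 (exact permutation p = 0.167). Without mutant-labelled replicate 2 the log2 difference was 0.15 (SE 0.057), with an unadjusted p of 0.0193 and an adjusted p of 0.587 in edgeR's quasi-likelihood test. It was 0.077 without mutant-labelled replicate 5, 0.079 without mutant-labelled replicate 1 and 0.081 without control-labelled replicate 4.

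*Six2* (chr17:85684277-85688274, minus strand), a homeodomain factor of frontonasal and suture mesenchyme, showed the same exception. It stood at 84.1, 98.2, 71.2, 79.2 and 71.7 CPM in control-labelled replicates 1 to 5 and at 89.5, 71.1, 87.9, 91.0 and 93.9 CPM in the mutant-labelled ones. The 4 mutant-labelled libraries other than replicate 2 lay between 87.9 and 93.9 CPM, below control-labelled replicate 2 and above the other controls. The means of 80.9 ± 11.1 and 86.7 ± 8.98 CPM (SD, n = 5) differed by 0.099 on the log2 scale (interval −0.12 to 0.32; exact permutation p = 0.373). The difference was 0.17 without mutant-labelled replicate 2 and 0.19 without control-labelled replicate 2, the latter with an unadjusted p of 0.0498 (edgeR; adjusted p = 0.597). It was 0.066 without control-labelled replicate 3 or 5 and 0.069 without mutant-labelled replicate 5.

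Of 28 paralogues and cofactors of the homeodomain, forkhead and zinc finger factors, 27 were tested and 0 passed the adjusted threshold. At an unadjusted p under 0.05, 2 were higher and 1 was lower in the mutant-labelled libraries, and the median log2 change was 0.016. *Lmx1b*, a LIM homeodomain gene of skull mesenchyme, was at 21.1 ± 2.62 and 27.8 ± 4.75 CPM (SD, n = 5), a log2 difference of 0.40 (SE 0.12, edgeR's adjusted p = 0.445). The others were the forkhead genes *Foxp1* (log2 difference 0.15) and *Foxs1* (−0.29).

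*Erf* (chr7:25242561-25250761, minus strand), the ERK-regulated repressor, had nearly equal means. The control-labelled libraries stood at 68.4, 65.4, 63.3, 64.3 and 59.7 CPM, and the mutant-labelled ones at 71.6, 58.8, 62.2, 56.5 and 67.7 CPM, for replicates 1 to 5. The groups overlapped, with mutant-labelled values at both ends. The means were 64.2 ± 3.15 and 63.4 ± 6.22 CPM (SD, n = 5), and the log2 difference of −0.020 had an interval of −0.17 to 0.13, or 11.2% lower to 9.49% higher (exact permutation p = 0.738). Without mutant-labelled replicate 2 it was 0.011. Of 16 other ETS factors 0 passed the adjusted threshold and 1 had an unadjusted p under 0.05. This was *Erg*, an ETS gene of endothelium and cartilage, at 41.1 ± 5.33 and 50.6 ± 6.88 CPM (SD, n = 5; log2 difference 0.30), beside *Elk4* (0.11) and *Ets1* (−0.12). The list's median was −0.014.

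**Figure D2:**
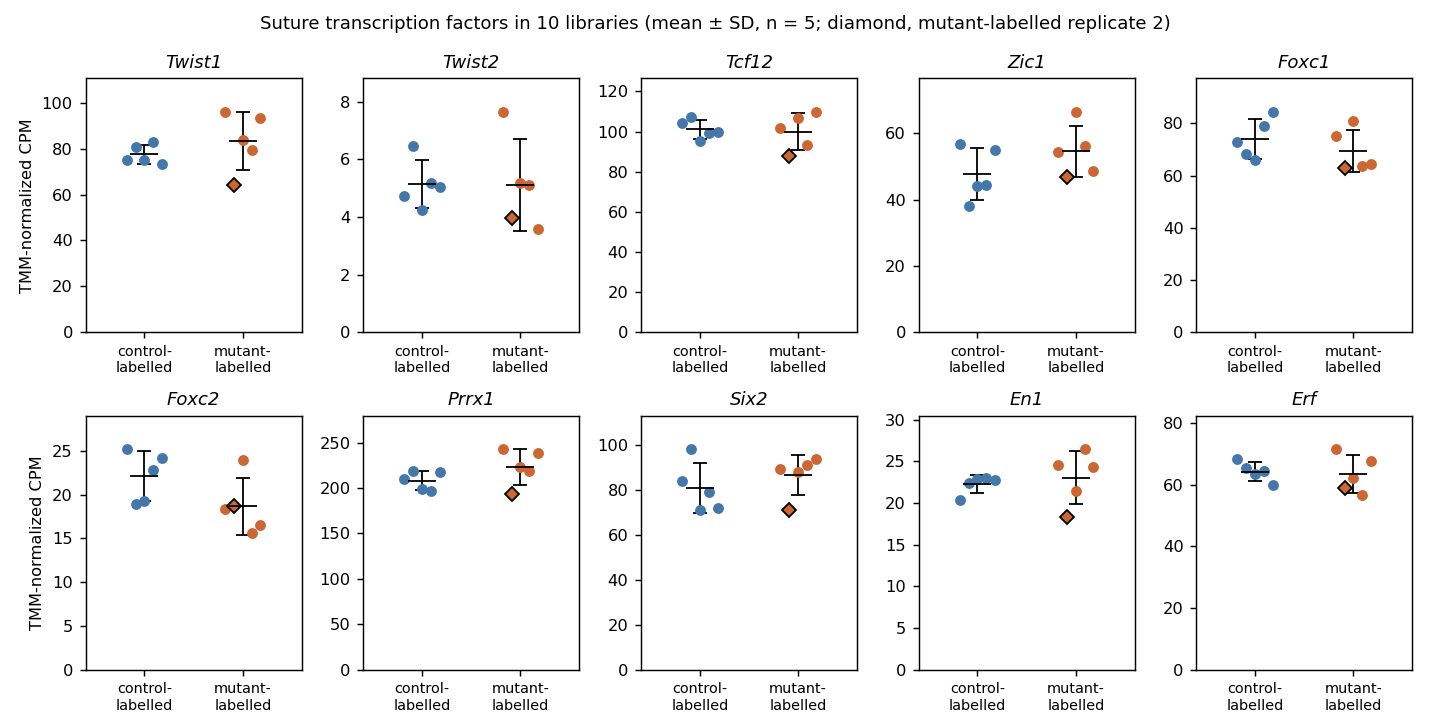
TMM-normalized CPM (vertical axes, each from 0) of the 10 factors in 5 control-labelled (blue) and 5 mutant-labelled (orange) libraries, ordered by replicate within a group, with the mean and SD as bars. The groups overlap for every factor, and mutant-labelled replicate 2 (diamond) is the lowest of the 10 libraries for 6 factors.

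Mutant-labelled replicate 2 was the lowest of all 10 libraries for *Twist1*, *Tcf12*, *Foxc1*, *Prrx1*, *Six2* and *En1*, 6 of the 10 factors, while it was the lowest for 14.8% of all genes tested. It was also the library with the highest neuron markers and the lowest osteoblast markers, given above, and the part of these in the low values was not tested. Without it, 2 of the 10 factors had an unadjusted p under 0.05, as did 6.79% of all genes, and 0 passed the adjusted threshold, which 0.0366% of all genes did, and the median log2 change was 0.097 for the factors and 0.0018 for all genes. The SD of log2 CPM was larger among mutant-labelled than among control-labelled libraries for 8 of the 10 factors and for 60.5% of all genes. Without replicate 2 these were 8 of 10 and 52.9%.

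Markers of some tissues of the region differed between the labels at unadjusted p-values in edgeR's test, where 7.49% of all genes were under 0.05. The 4 markers of AF connective tissue (*Scx*, *Tnmd*, *Mkx* and *Matn4*) were higher in the mutant-labelled libraries, 4 of 4 at an unadjusted p under 0.05 and 0 at the adjusted threshold, with a median log2 change of 0.47 and sums of 148 to 179 CPM against 199 to 278 CPM. The 15 osteoblast markers were lower, 8 at an unadjusted p under 0.05 and 0 at the adjusted threshold, with a median of −0.24 and sums that overlapped. Without mutant-labelled replicate 2, 13 of the 15 were lower and 2 higher, with a median difference of mean log2 CPM of −0.23. Of 3 markers of ectocranial mesenchyme, 3 were higher, 2 at an unadjusted p under 0.05 (*Fgf18* and *C1qtnf3*), with sums of 326 to 451 CPM and 354 to 531 CPM. The 8 neuron markers were 8 of 8 higher, 2 at an unadjusted p under 0.05, with a median of 0.87. Without mutant-labelled replicate 2, left out after the data had been seen, 5 of 8 were higher and 3 lower, and the median difference of mean log2 CPM was 0.15, against 0.57 over all libraries. Of 7 chondrocyte markers tested, 2 were higher at an unadjusted p under 0.05 (*Col2a1* and *Col9a2*), with 5 higher and 2 lower in all and sums of 1359 to 1683 CPM and 1261 to 1675 CPM. Their median difference of mean log2 CPM was 0.20, and 0.073 without mutant-labelled replicate 2. At an unadjusted p under 0.05 there were 0 of 8 dura and meninges markers, 0 of 5 of hypodermis and dermis and 0 of 6 of endothelium. There were also 0 of 6 macrophage and osteoclast, 0 of 4 Schwann cell and 0 of 7 skeletal muscle markers. The same held for 5 erythroid, 4 epidermis and 6 proliferation markers. None of the markers in these lists passed the adjusted threshold. The part of the shifts above in the levels of the factors was not tested.

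Other craniosynostosis genes were compared in the same libraries. Of 28 such genes, *Fgfr2* left out, 28 were tested, 0 passed the adjusted threshold, 0 were higher and 4 were lower at an unadjusted p under 0.05, and the median log2 change was 0.0046. *Alpl*, the alkaline phosphatase of mineralizing osteoblasts, was at 504 ± 48.9 and 386 ± 46.0 CPM (SD, n = 5), a log2 difference of −0.38 without overlap (exact permutation p = 0.00794, the smallest this design can give; edgeR's adjusted p = 0.336). *Por*, the reductase that supplies electrons to cytochrome P450 enzymes, was at 49.8 ± 2.93 and 43.6 ± 1.62 CPM (SD, n = 5), a log2 difference of −0.19 without overlap (exact permutation p = 0.00794; edgeR's adjusted p = 0.411). The other 2 were *Phex* (log2 difference −0.40), a regulator of phosphate that also stands in the osteoblast list with *Alpl*, and the FGF receptor gene *Fgfr3* (−0.23). Of 6 markers of suture progenitors besides *Prrx1* and *Six2*, 0 passed the adjusted threshold. Only *Gli1*, the hedgehog target that marks suture stem cells, had an unadjusted p under 0.05, at 52.0 ± 6.83 and 42.9 ± 3.26 CPM (SD, n = 5; log2 difference −0.28, edgeR's adjusted p = 0.508). *Axin2*, a WNT target in the same list, had a log2 difference of 0.20, and the collagen receptor gene *Ddr2* one of 0.081.

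Levels of different genes were compared as CPM per kilobase of exon, with length taken as the union of a gene's exons. In the control-labelled libraries *Twist1* led at 47.6 ± 2.57 (SD, n = 5), followed by *Six2* at 38.2 ± 5.23. *Prrx1* at 18.8 ± 0.919 and *Erf* at 17.8 ± 0.873 came next, then *Foxc1* at 12.7 ± 1.31. *En1* (8.48), *Zic1* (8.37), *Foxc2* (8.10) and *Tcf12* (6.51) followed, and *Twist2* at 1.62 ± 0.262 was the lowest. Neighbours whose library values overlapped were *Twist1* and *Six2*, *Prrx1* and *Erf*, *En1* and *Zic1*, and *Zic1* and *Foxc2*. The ranges of *Twist1* and *Six2* overlapped although *Twist1* was above *Six2* within 5 of 5 libraries.

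The mutant-labelled libraries gave the same order apart from *Zic1* (9.58), which stood above *En1* (8.77), and these overlapped. *Twist1* was at 51.2 ± 7.80 and *Six2* at 40.9 ± 4.24 per kilobase (SD, n = 5). The ratio of *Twist1* to *Twist2* per kilobase had a median of 30.9 in the control-labelled and 31.4 in the mutant-labelled libraries, with ranges of 24.3 to 34.4 and 24.5 to 50.8 (exact permutation p = 0.556). The choice of length mattered for genes with many isoforms: with the longest transcript in place of the union, *Tcf12* moved to rank 5 at 16.1 per kilobase and *Prrx1* stood at 31.9, clear of *Erf*.

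**Figure D3:**
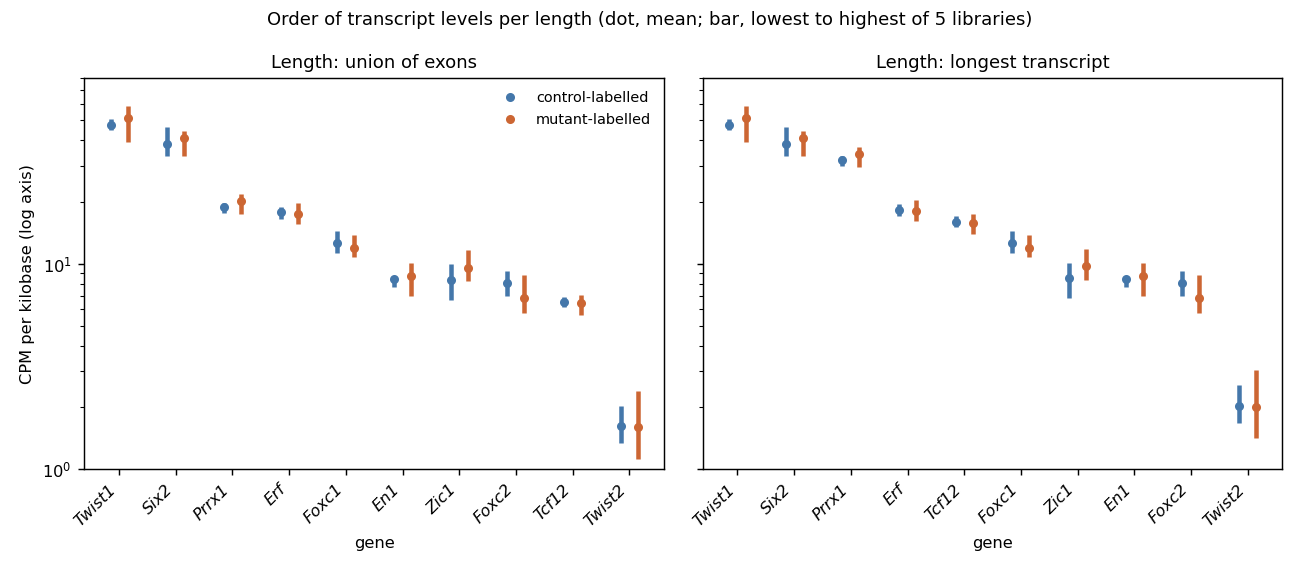
CPM per kilobase (log axis) of the 10 factors in control-labelled (blue) and mutant-labelled (orange) libraries, with the mean as a dot and the lowest to highest of 5 libraries as a bar, for the union of exons (left) and the longest transcript (right). *Twist1* and *Six2* lead and *Twist2* is last with either length, while *Tcf12* moves from rank 9 to rank 5 among the controls.

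Covariation of the factors was examined over the 10 libraries, which share the difference between the labels. Of 45 pairs, 38 had a positive Pearson's r of log2 CPM and the median r was 0.31, but 0 pairs passed an adjusted p of 0.05 by Pearson's r or Spearman's rho, and 10 had an unadjusted permutation p under 0.05. *Twist1* and *Prrx1* had r = 0.80 (permutation p = 0.00555, adjusted 0.198) and rho = 0.77 (permutation p = 0.0126, adjusted 0.315). Without the 2 libraries farthest from the median of *Twist1*, mutant-labelled replicates 1 and 2, r was 0.58. *Foxc1* and *Foxc2* had r = 0.80 (permutation p = 0.00903, adjusted 0.198) and rho = 0.70 (permutation p = 0.0298, adjusted 0.315), with 0.69 without their farthest libraries, and the counts of this pair are linked as described above. *Twist1* and its dimer partner *Tcf12* had r = 0.70 (permutation p = 0.0262, adjusted 0.198) and rho = 0.62 (permutation p = 0.0612, adjusted 0.324), with 0.59 without the farthest libraries. The lowest r was −0.49, between *Foxc2* and *En1*. With values centred within each group 0 pairs passed and 8 had an unadjusted p under 0.05.

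Much of this covariation moved when mutant-labelled replicate 2 was left out, a choice made after the data had been seen. Over the remaining 9 libraries 28 pairs were positive and 17 negative, the median r was 0.17, and 0 pairs passed the adjusted threshold, with 3 at an unadjusted exact p under 0.05. The strongest pair was then *Foxc2* and *En1* at r = −0.85 (exact permutation p = 0.00239, adjusted 0.108). *Foxc1* and *Foxc2* had r = 0.82 and *Twist1* and *Prrx1* r = 0.73, while *Twist1* and *Tcf12* had 0.46 and *Tcf12* and *En1* went from 0.24 to −0.44.

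**Figure D4:**
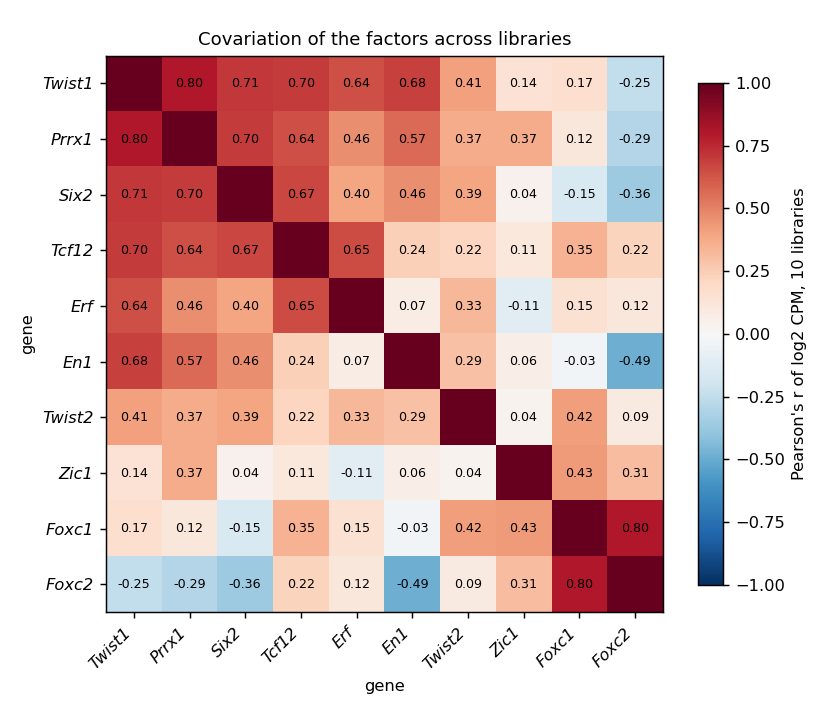
Pearson's r of log2 CPM over 10 libraries for each pair of the 10 factors (color from −1 to 1, value in each square). *Twist1*, *Prrx1*, *Six2*, *Tcf12* and *Erf* have values of 0.40 to 0.80 with each other, *En1* ranges from −0.49 with *Foxc2* to 0.68 with *Twist1*, and no pair passed after adjustment.

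For each factor, the genes with the most similar pattern were ranked by Pearson's r of log2 CPM over the 10 libraries among 14477 genes with a mean of at least 1 CPM. These are the highest of many values and carry no test. *Twist1* was closest to *Dlc1* (r = 0.95), *Ipo4* and *Ncaph*, and *Prrx1* to *Fndc1* (r = 0.93) and *Zeb1*. *Six2* was closest to *Ror2* (r = 0.97), a receptor of non-canonical WNT ligands, then *Rflnb* and *Smoc2*. *Zic1* was closest to *Lmx1b* (r = 0.90), described above, then *Abi3bp* and *Tmem243*. *Tcf12* was closest to *Dennd2c* (r = 0.96), *Golga3* and *Igf2r*, and *Erf* to *Zfp703* (r = 0.95), *Slc2a13* and *Klf4*. *En1* was closest to *Supt6* (r = 0.91), *Myh9* and *Shcbp1*, and *Twist2* to *Igfbp6* (r = 0.90), *Plat* and *Dennd1a*. *Foxc1* was closest to *Slco2a1* (r = 0.93), *Nfe2l2* and *Fam122a*, while *Foxc2* was closest to *Slc26a2* (r = 0.96), a sulfate transporter needed in cartilage, then *Pde5a* and *Slc35g1*. None of the genes named here was among the 10 factors, and none passed an adjusted p of 0.05 between the labels (edgeR's quasi-likelihood test).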

How the data were processed

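Total RNA of 10 AF samples was made into stranded libraries and sequenced as single 50-base reads. The authors deposited 1 table of estimated counts per gene, not scaled between libraries, of which 67.3% were whole numbers to 6 decimals. No gene had fewer than 10 counts in all libraries together. The submitters' processing notes name mm10 and Partek. The aligner, the counting tool and its use of strand are not given in the sources used here. Of the table's symbols, 22533 were found in GENCODE M21 (GRCm38), 22288 of them with the same start and end, and positions, exon lengths and sequences come from that annotation and genome.

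Estimated counts were rounded to whole numbers, as the design had assumed whole counts. edgeR 4.0.16 in R 4.3.3 was used with its expression filter, TMM and the quasi-likelihood test without covariates, with Benjamini-Hochberg adjustment over 16267 genes and a threshold of 0.05. The fit's biological coefficient of variation was 18.9%. Intervals are 95% intervals from that fit, and log2 CPM used a prior count of 0.5. Single genes were compared by two-sided exact permutation over 252 groupings, which cannot give a p under 0.00794, and correlations by 100000 two-sided permutations adjusted over 45 pairs. Scripts were tested on simulated data. The p-values set differences between the groups against the spread between these libraries, which the sources do not tie to single embryos.

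Genes named are the 10 factors, *Fgfr2*, the 3 genes with the smallest unadjusted p in each related list, and the 3 genes closest to each factor in pattern, of which 1 is not reported here. *Fgfr3*, *Gm29100*, *Zic4*, *CT010467.1* and the markers of AF connective tissue, ectocranial mesenchyme and cartilage fall outside this rule and were named after their values were seen. The members and lists were chosen with earlier results of these data known. The alternatives tried were scaling by DESeq2's size factors or by library size alone, the Wald test of DESeq2 1.42.0, voom with quality weights in limma 3.58.1, no filter, at least 10 counts in every library, a replicate block, a table without ribosomal RNA genes, each library left out in turn, and the longest transcript as length.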

Additional observations from a re-analysis of the deposited data

Results flagged for a closer look

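In the 22 groups of 5 libraries formed by the 10 factors and *Fgfr2* under each label, 2 single values lay far from the other 4 of their group by Dixon's ratio, which chance gives in about 1 of 20 groups. *Six2* was at 71.1 CPM in mutant-labelled replicate 2 and at 87.9 to 93.9 CPM in the other mutant-labelled libraries. *En1* was at 20.3 CPM in control-labelled replicate 1 and at 22.3 to 23.0 CPM in the other control-labelled libraries.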

How the results depend on the processing

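No factor passed the adjusted threshold in any of 18 alternatives each, with a lowest adjusted p of 0.505 (*Foxc2*, edgeR without mutant-labelled replicate 3). The number with an unadjusted p under 0.05 was 1 with library size alone (*Foxc2*; 5.95% of all genes), 1 with limma voom (*Prrx1*; 7.32%) and 0 to 2 with each library left out (5.19% to 8.34%). Over all genes, the count at the adjusted threshold was 3 in the main setting, 1 with library size alone, 97 with DESeq2's Wald test, 1 with the replicate block and 1 to 6 with each library left out. The *Fgfr2* difference was 0.63 with library size alone (adjusted p = 0.152), 0.67 without a filter (0.0557) and 0.68 with the replicate block (0.427). With each library left out it was 0.63 to 0.75. It passed the adjusted threshold with DESeq2's Wald test (adjusted p = 1.69e-09), voom with quality weights (0.00966) and DESeq2's size factors (0.0413). It also passed with at least 10 counts in every library (0.0282) and without ribosomal RNA genes (0.0450). No pairing by replicate number was seen: same-numbered libraries correlated from −0.21 to 0.14 in their deviations, and 0 of 5 controls correlated best with its own number. Tissue content also differed between libraries, so these correlations over all genes cannot settle which libraries were littermates. Direction was kept for 7 factors in these alternatives. It turned for *Tcf12* (0.023 with voom, −0.054 to 0.032 with each library left out), *Erf* (0.00018 with voom, −0.058 to 0.026) and *Twist2* (−0.20 to 0.092), and the cause was not tested. At 81 to 189 counts per library *Twist2* had the fewest counts of the 10 factors and the widest interval.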
